A study of Gallus gallus with 2 samples.

Results

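Genes that skeletal muscle is known to raise under glucocorticoids or fasting were examined, together with NR3C1, the gene of the glucocorticoid receptor itself. The tissue was breast muscle of black-bone chickens with and without added dietary tyrosine. The list holds 10 symbols, which are NR3C1, FKBP5, ZBTB16, TSC22D3, KLF15, FOXO1, FOXO3, FBXO32, TRIM63 and PDK4. They were chosen with values of this comparison known, so their values are a description and no test is given for them. A gene belongs to the list when its deposited name is one of the symbols. Of the 10 symbols, 9 were found among the 15073 listed genes. TSC22D3, which encodes the glucocorticoid-induced leucine zipper protein GILZ, was not found by name and was not analysed here. In the RefSeq gene table of the assembly GRCg7b, TSC22D3 is a synonym of TSC22D4, and that name was not found either. In the same table ZBTB16 is a synonym of a gene called ZBTB32. The deposited name ZBTB16 is kept here.

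Birds of the control group ate the basal diet alone, and those of test group IV ate it with 0.8% tyrosine added. All birds were 12 weeks old, of the Xichuan black-bone strain, and had been fasted for 12 h with access to water before sampling. Their sex is not given in the sources used here. Total RNA from the breast muscle of 3 birds was pooled in each group and sequenced as 1 library, so each group is a single pool and no difference below has a replicate check. These are called the control library and the tyrosine library. In bulk tissue, fewer cells of a type and less RNA per cell cannot be told apart.

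Corticosterone, the main glucocorticoid of birds, binds the glucocorticoid receptor, which then moves into the nucleus and activates target genes. During fasting, insulin falls and corticosterone rises. Less insulin means less AKT activity, and the forkhead factors FOXO1 and FOXO3 then enter the nucleus. Both routes are known, mainly from mammals, to raise the muscle ubiquitin ligases that mark proteins for breakdown and the kinase that holds back the use of glucose. Breast muscle, a fast glycolytic muscle, is a main protein store of the bird in a fast.

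Over the listed genes, the control library held 13135159 counted fragments and the tyrosine library held 14318101. Genes seen in the tyrosine library alone are left out of its total. Levels are given as FPKM, the fragment count divided by transcript length and depth, so that genes can be compared with one another. A fold change is the FPKM of the tyrosine library divided by that of the control library. Genes that reached an FPKM of 1 in either library are called expressed genes, and there were 11010 of them, with a median log2 fold change of 0.09. Each 95% interval is an exact Clopper-Pearson interval of the fragment counts. PCR duplicates cannot be told from original molecules here, and the intervals cover counting error only, not the variation between birds or pools. Of the 12 fixed muscle fibre markers, 6 were listed, and their summed FPKM was 31168 in the control library and 33092 in the tyrosine library. Of these, PVALB had 1 and 5 fragments. The title of the series speaks of skin, whereas the library labels speak of breast muscle, and the tissue was taken as breast muscle.

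All 9 listed members had a lower FPKM in the tyrosine library than in the control library, and 6 of them were at least 2-fold lower. Of all expressed genes, 39.4% were lower in the tyrosine library and 3.31% were at least 2-fold lower. No member was at least 2-fold higher, against 3.1% of all such genes. Genes with 0 fragments in the control library are not listed, so the last share leaves them out. Because the members were chosen on this comparison, nothing is read from the difference between these shares. The log2 fold changes ranged from -2.38 for ZBTB16 to -0.42 for NR3C1, with a median of -1.52. The 9 genes lie on 8 chromosomes of Galgal5, the genome build of the deposited positions, and only FBXO32 and PDK4 share one, chromosome 2.

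**Figure D1:**
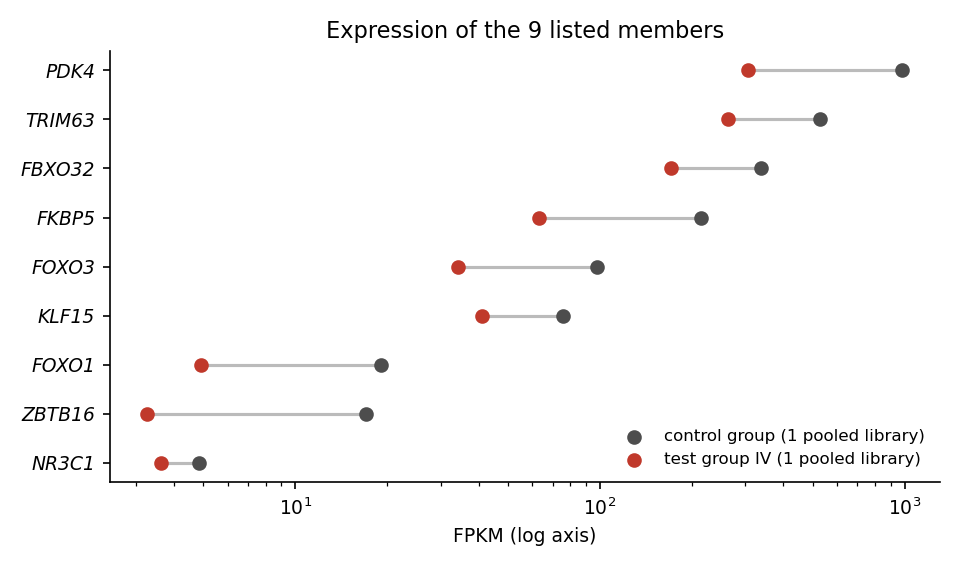
FPKM (x axis, log scale) of the 9 listed members in the control group (grey) and in test group IV (red), 1 pooled library each. The red point lies to the left of the grey point for each gene, and PDK4 is the highest in both libraries (981 and 305).

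The receptor itself had the lowest level in the control library and the smallest difference. NR3C1, which encodes the glucocorticoid receptor, lies on chromosome 13 from 17485533 to 17536237. It had 343 fragments (FPKM 4.85) in the control library and 279 fragments (FPKM 3.62) in the tyrosine library. Its log2 fold change was -0.42 (95% interval -0.66 to -0.19), and 12.04% of the expressed genes were lower by more. The whole counting interval was below 0 for all 9 members, as it was for 15.3% of those genes. Because the members were chosen on this comparison, nothing is read from that either.

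The co-chaperone of the receptor differed far more than the receptor. FKBP5, whose protein FKBP51 binds the receptor through HSP90 and lowers its affinity for hormone in mammals, is itself a receptor target and a common readout of glucocorticoid action there. It lies on chromosome 26 from 67524 to 84823. The control library had 5489 fragments (FPKM 215) and the tyrosine library had 1755 (FPKM 63.1). The log2 fold change was -1.77 (95% interval -1.85 to -1.69), and the control level was 3.41 times that of the tyrosine library. Ranked by FPKM, FKBP5 was at place 171 of the listed genes in the control library and at place 710 in the tyrosine library.

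Of the transcription factors in the list, ZBTB16 had the largest fold difference of all 9 members. ZBTB16 (PLZF) is a zinc finger repressor that glucocorticoids induce strongly in human cells. It lies on chromosome 24 from 4467296 to 4538656. Its 501 fragments (FPKM 17.0) in the control library compared with 105 (FPKM 3.27) in the tyrosine library. The log2 fold change was -2.38 (95% interval -2.70 to -2.07), a control level 5.20 times that of the tyrosine library. Of the expressed genes, 66 had a lower log2 fold change. ZBTB16 was chosen on this comparison, so nothing is read from this rank.

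KLF15 encodes a Krüppel-like factor that is a direct receptor target in rat and mouse muscle, where it raises genes of amino acid breakdown. It lies on chromosome 12 from 10637434 to 10650045. The control library had 1422 fragments (FPKM 75.5) and the tyrosine library had 841 (FPKM 41.0). Its log2 fold change of -0.88 (95% interval -1.01 to -0.76) was short of a 2-fold difference.

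Both forkhead factors of the list were more than 2-fold lower in the tyrosine library. FOXO1 on chromosome 1, from 170581377 to 170644995, had 1994 fragments (FPKM 19.2) in the control library and 555 (FPKM 4.90) in the tyrosine library. Its log2 fold change was -1.97 (95% interval -2.11 to -1.83). FOXO3 on chromosome 3, from 67450300 to 67533242, was the more abundant of the pair in both libraries. It had 5676 fragments (FPKM 98.2) in the control library and 2160 (FPKM 34.3) in the tyrosine library, a log2 fold change of -1.52 (95% interval -1.59 to -1.45). FOXO1 stood at 0.195 of the FPKM of FOXO3 in the control library and at 0.143 in the tyrosine library. The log2 ratio between these shares was -0.45 (95% Woolf interval -0.60 to -0.30, counting error only). A gene model without a symbol overlaps FOXO3 and had 3 and 4 fragments.

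The muscle ubiquitin ligases were among the most abundant genes of the list, and each differed by close to 2-fold. FBXO32 encodes atrogin-1, the F-box subunit that brings substrates to a cullin ligase. It lies on chromosome 2 from 138172194 to 138196845. It had 20305 fragments (FPKM 339) in the control library and 11179 (FPKM 171) in the tyrosine library, a log2 fold change of -0.99 (95% interval -1.02 to -0.95). TRIM63 encodes MuRF1, a RING-finger ligase of the sarcomere that acts on thick filament proteins, and lies on chromosome 23 from 3220329 to 3225445. Its values were 16445 fragments (FPKM 529) in the control library and 8947 (FPKM 264) in the tyrosine library, with a log2 fold change of -1.003 (95% interval -1.04 to -0.97).

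The 2-fold threshold separated these ligases only narrowly. TRIM63 was just inside, with a control level 2.004 times that of the tyrosine library, and FBXO32 just outside, with 1.980 times. The FPKM of TRIM63 was 1.56 times that of FBXO32 in the control library and 1.54 times in the tyrosine library. The log2 ratio of these figures was -0.02 (95% Woolf interval -0.07 to 0.03), an interval that holds 0. With TMM scaling of the counts (edgeR, a trimmed mean of the log ratios), both were more than 2-fold lower, with log2 fold changes of -1.09 for TRIM63 and -1.08 for FBXO32. With totals that leave out mitochondrial genes and the most abundant genes, the log2 fold change of TRIM63 was -0.995, and 5 members were then at least 2-fold lower.

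PDK4 carried the most fragments of the list. It encodes pyruvate dehydrogenase kinase 4, which phosphorylates and switches off the pyruvate dehydrogenase complex so that pyruvate is spared in fasting. It lies on chromosome 2 from 23933443 to 23942823. The control library had 48055 fragments (FPKM 981) and the tyrosine library had 16297 (FPKM 305). Its log2 fold change was -1.68 (95% interval -1.71 to -1.66). Its place by FPKM was 47 in the control library and 114 in the tyrosine library.

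**Figure D2:**
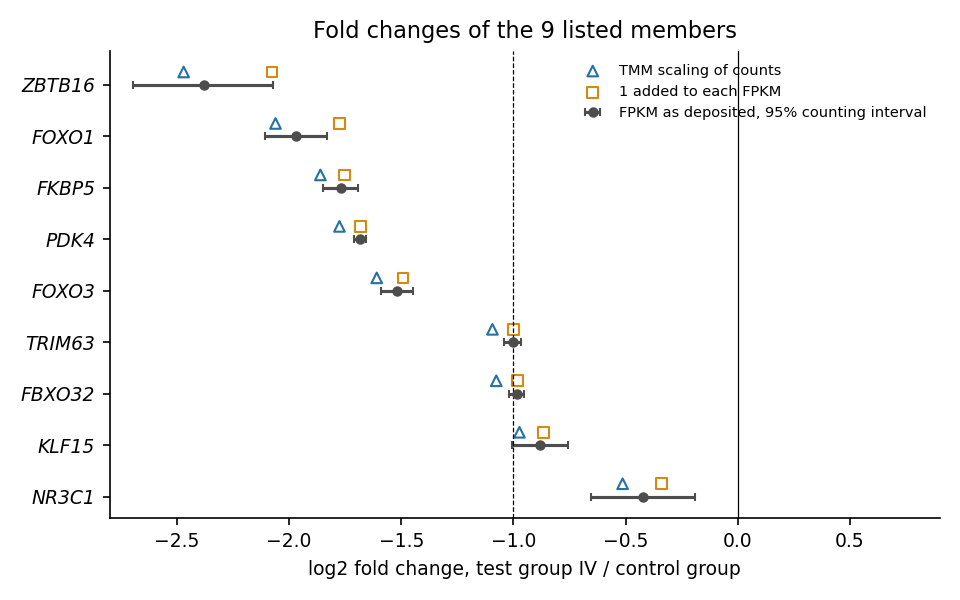
log2 fold change (x axis, test group IV over control group) of the 9 listed members with 95% counting intervals (bars), with TMM scaling of the counts (triangles) and with 1 added to each FPKM (squares). Every point lies below 0, and TRIM63 and FBXO32 sit on the dashed 2-fold line.

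Together, the 9 genes took 0.763% of the counted fragments in the control library (95% Clopper-Pearson interval 0.758% to 0.768%). In the tyrosine library they took 0.294% (0.291% to 0.297%). PDK4 alone made up 0.366% and 0.114%, respectively. Without PDK4 the remaining 8 genes took 0.397% in the control library and 0.180% in the tyrosine library.

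The differences did not follow the expression level of the members. The lowest members in the control library, NR3C1 and ZBTB16, had the smallest and the largest difference. Among 4195 genes whose mean FPKM was 10 or more, the log2 fold change had an SD of 0.395, and its central 95% lay between -0.83 and 0.68. Of these genes 1.88% were at least 2-fold lower and 0.715% at least 2-fold higher. Of the members, 8 reached this level, ZBTB16 and FOXO1 only through their control library, so nothing is read from their number.

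**Figure D3:**
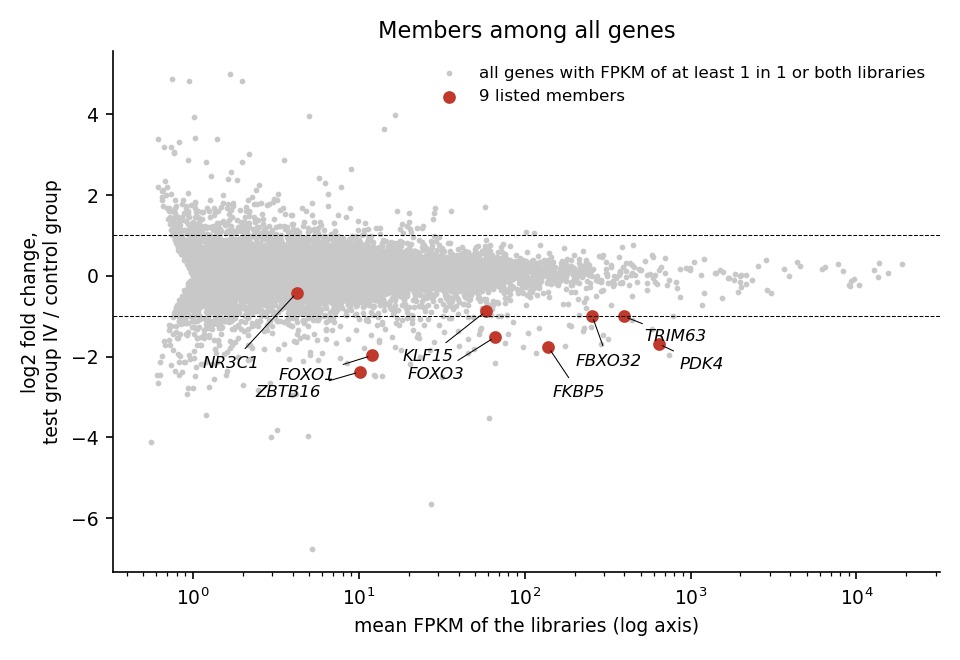
log2 fold change (y axis) against the mean FPKM of the libraries (x axis, log scale) for expressed genes (FPKM of 1 or more in either library) with fragments in both (grey), with the 9 listed members in red. Dashed lines mark 2-fold differences, and all members but NR3C1 lie at or near the lower edge of the grey cloud. Members were chosen on this comparison, so nothing is read from their place.

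Close relatives found by name were set beside the members. KLF6, a relative of KLF15 that was lower too, is described with the last list. The ratio of a member to its relative within each library does not depend on how the libraries are scaled. Members were chosen with their values known, so nothing is read from a difference in such a ratio or from its interval. Reads that match more than 1 relative were not separated here.

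Of the pyruvate dehydrogenase kinases, PDK4, PDK3 and PDK1 were listed, and PDK4 was the one that was lower. PDK2 was not found by name and was not analysed here. PDK3 had an FPKM of 54.2 in the control library and 57.7 in the tyrosine library, and PDK1 had 9.04 and 10.9, respectively. The log2 fold changes were 0.09 for PDK3 (95% interval 0.01 to 0.17) and 0.27 for PDK1 (95% interval 0.04 to 0.51). Scaling the libraries by their median ratio, which lowers each log2 fold change by 0.09, brings that of PDK3 to about 0. PDK4 exceeded PDK3 by 18.1 times in the control library and by 5.29 times in the tyrosine library. The summed FPKM of the 3 kinases was 1044 and 374, and PDK4 supplied 93.9% and 81.6% of it, respectively.

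FOXO4, the third forkhead factor of the family found here, had an FPKM of 17.7 in the control library and 16.5 in the tyrosine library. Its log2 fold change was -0.11 (95% interval -0.32 to 0.11). FOXO1 was at 1.08 times the FPKM of FOXO4 in the control library and at 0.297 times in the tyrosine library. FOXO3 was at 5.53 times FOXO4 in the control library and at 2.08 times in the tyrosine library.

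The relatives of MuRF1 also stayed close to their control levels. TRIM55 (MuRF2) had an FPKM of 112.6 and 119.9, and TRIM54 (MuRF3) had 63.7 and 63.3, respectively. TRIM63 was at 4.70 times TRIM55 in the control library and at 2.20 times in the tyrosine library. The log2 ratio of these figures was -1.09 (95% Woolf interval -1.18 to -1.01). FBXO25, the closest relative of FBXO32, was a low gene with 79 and 97 fragments (FPKM 3.99 and 4.49).

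For the receptor complex, FKBP4 encodes FKBP52, which competes with FKBP51 for the receptor and favours its transport to the nucleus in mammals. FKBP4 was higher in the tyrosine library, with an FPKM of 60.6 in the control library and 81.9 in the tyrosine library, a log2 fold change of 0.43 (95% interval 0.35 to 0.52). FKBP5 was at 3.55 times the FPKM of FKBP4 in the control library and at 0.771 times in the tyrosine library. The log2 ratio of these figures was -2.20 (95% Woolf interval -2.32 to -2.09). NR3C2, the mineralocorticoid receptor gene, had an FPKM of 3.38 and 3.65, and its interval held 0.

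**Figure D4:**
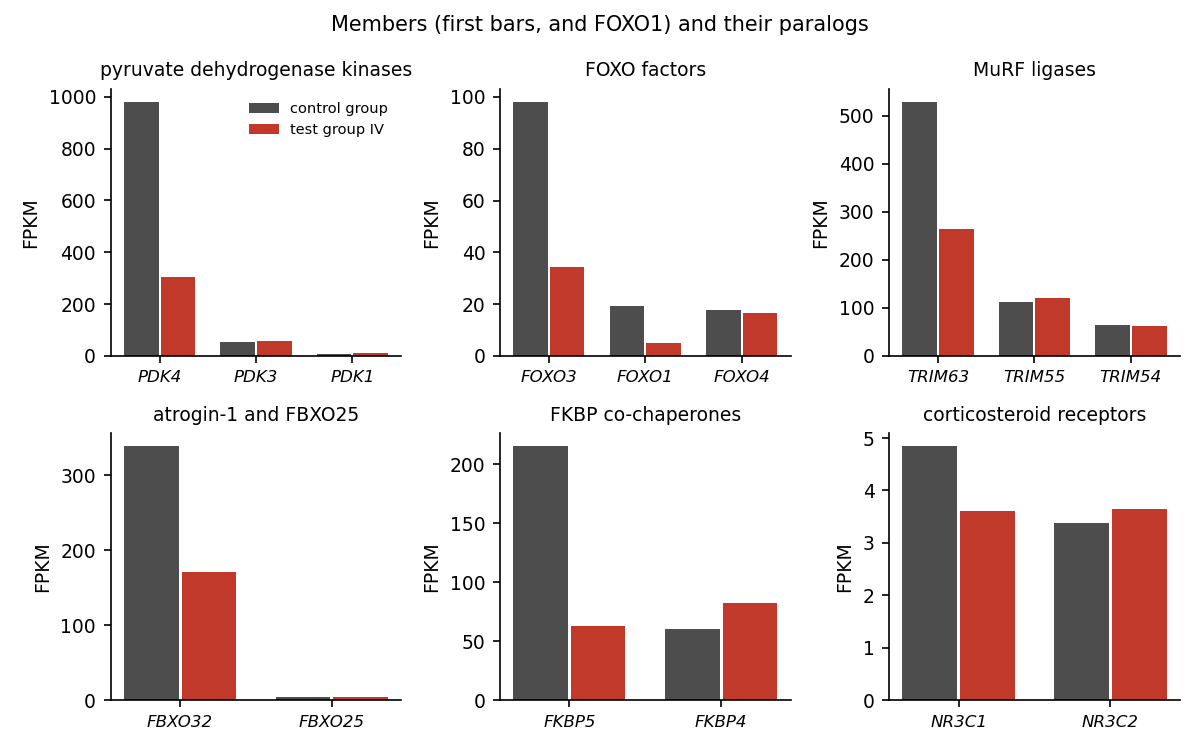
FPKM (y axis, from 0) of members and their relatives in the control group (grey) and test group IV (red), 1 pooled library each. PDK4, FOXO3, FOXO1, TRIM63, FBXO32, FKBP5 and NR3C1 have shorter red bars, while PDK3, PDK1, TRIM55, FBXO25, FKBP4 and NR3C2 have taller ones. The relatives FOXO4 (17.7 and 16.5) and TRIM54 (63.7 and 63.3) have slightly shorter red bars.

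Other genes of these pathways were taken from 7 lists of 140 symbols, of which 104 were found. As with the members, the lists were written with earlier results of these data known. Of the 100 expressed genes, 10 were at least 2-fold lower and 0 at least 2-fold higher, beside 3.31% and 3.1% of all expressed genes. The same shares stand beside the count of each list below, and a small list can hold no such gene at these shares. For the list medians, 0.1 was added to each FPKM and genes below a mean FPKM of 0.1 were not counted. On this scale the median log2 fold change of the 7 lists together was 0.05, beside 0.07 for all genes.

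The other glucocorticoid-induced genes were divided. Of 17 expressed genes, 4 were at least 2-fold lower and 0 at least 2-fold higher, and the median log2 fold change was -0.26. CEBPD, a transcription factor of the C/EBP family, had 749 fragments (FPKM 77.3) in the control library and 231 (FPKM 21.9) in the tyrosine library. Its log2 fold change was -1.82 (95% interval -2.04 to -1.61). GLUL, the glutamine synthetase gene, by which wasting muscle exports nitrogen as glutamine, had 9663 fragments (FPKM 269) and 3153 (FPKM 80.6), a log2 fold change of -1.74.

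SESN1 encodes sestrin 1, a brake on mTORC1 that FOXO factors are known to induce. It had an FPKM of 476 in the control library and 162 in the tyrosine library, a log2 fold change of -1.56. A gene model without a symbol lies within SESN1, and strand was not used here to separate them. CRISPLD2, a secreted protein gene induced by glucocorticoids in human airway cells, had 134 and 52 fragments (FPKM 6.88 and 2.45). Of 17 genes in this list with a mean FPKM of 0.1 or more, 10 were lower and 7 higher in the tyrosine library with the FPKM values as deposited. DUSP1, a phosphatase of MAP kinases, had an FPKM of 40.1 and 42.4, and SGK1, a kinase related to AKT, had 41.9 and 49.4, respectively. CDKN1A, a cell cycle inhibitor gene, had 54.3 and 94.5. These 3 were named after their values were seen. For DUSP1 the 95% interval of the log2 fold change, -0.04 to 0.21, held 0. DDIT4, an inhibitor of mTORC1 also named afterwards, was lower by less than 2-fold, with 876 and 682 fragments (FPKM 120.8 and 86.3).

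None of the chaperone, cofactor and ligand genes of the receptor was 2-fold different among 10 that were expressed, and the median log2 fold change of the list was 0.11. HSP90AA1, the chaperone that holds the receptor in its hormone-binding state, had an FPKM of 1396 in the control library and 1469.6 in the tyrosine library. HSPA8, which loads the receptor onto HSP90, had an FPKM of 386 and 481, respectively.

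The other muscle ligase and proteolysis genes formed the next list. Of 20 expressed genes, 0 were at least 2-fold lower and 0 at least 2-fold higher, and the median log2 fold change was 0.09. Of all expressed genes, these shares were 3.31% and 3.1%, so a list of this size can hold none. FBXO32 and TRIM63 were chosen on this comparison, so nothing is read from the contrast with them. ASB2, the substrate subunit of a cullin ligase that acts on muscle cell filamins, was higher in the tyrosine library, with an FPKM of 330.1 in the control library and 564 in the tyrosine library (log2 fold change 0.77). FBXO40, a muscle F-box gene named after its values were seen, had an FPKM of 61.2 and 102. EIF4EBP1, a repressor of cap-dependent translation, had 199.7 and 233, respectively.

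Of 13 autophagy genes that FOXO factors are linked to, 1 was at least 2-fold lower, and the median log2 fold change was 0.11. This gene was ULK2, a kinase that starts autophagy. It had 1727 fragments (FPKM 42.1) in the control library and 527 (FPKM 11.8) in the tyrosine library, a log2 fold change of -1.84 (95% interval -1.98 to -1.70). ULK1, its relative, was on the other side, with an FPKM of 36.7 and 45.6. ULK2 was at 1.15 times ULK1 in the control library and at 0.258 times in the tyrosine library, a pair chosen after the values were seen. MAP1LC3A, an LC3 gene of the autophagosome membrane, had an FPKM of 158 and 119, and BNIP3, a mitophagy receptor, had 104 and 89.1.

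Of 14 fasting fuel-switch genes, 1 was at least 2-fold lower with the FPKM values as deposited, 4 after median ratio scaling and 5 after TMM scaling. Of all expressed genes, the shares at least 2-fold lower were 3.31%, 4% and 4.01%, respectively. PDP1 encodes the phosphatase that reverses the action of PDK4 on the pyruvate dehydrogenase complex. It had 9135 fragments (FPKM 174) in the control library and 4095 (FPKM 71.3) in the tyrosine library, a log2 fold change of -1.28 (95% interval -1.34 to -1.23). PDP2, its relative, had an FPKM of 14.9 and 15.8. UCP3, the uncoupling protein gene of avian muscle, was at the 2-fold line, with an FPKM of 1049.6 in the control library and 525 in the tyrosine library. UCP3, SLC25A20 and GPT2 passed that line after median ratio scaling, and LPL passed it with TMM scaling, the last 3 named after their values were seen. With the FPKM values as deposited, the log2 fold changes were -0.98 for SLC25A20, -0.91 for GPT2 and -0.91 for LPL. GPT2 had only 38 and 22 fragments (95% interval -1.74 to -0.12). FBP2, the muscle fructose-bisphosphatase gene, had an FPKM of 561 and 578.

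Among genes between insulin and FOXO, IGF1R was 1 of 10 that was at least 2-fold lower, with 213 and 99 fragments (FPKM 3.47 and 1.48). It encodes the receptor of insulin-like growth factor 1. IRS1, which couples this receptor and the insulin receptor to AKT, had 442 and 849 fragments (FPKM 12.4 and 21.8), a log2 fold change of 0.82. It was named after its value was seen. SIRT1, a deacetylase of FOXO factors, had an FPKM of 18.97 and 20.3.

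The relatives of KLF15, ZBTB16 and TSC22D3 formed the last list, in which 3 of 16 genes were at least 2-fold lower and the median log2 fold change was -0.14. KLF6, a factor of the same family as KLF15, had 5517 fragments (FPKM 77.6) in the control library and 2226 (FPKM 28.7) in the tyrosine library. Its log2 fold change was -1.43. KLF15 was at 0.973 times the FPKM of KLF6 in the control library and at 1.43 times in the tyrosine library. KLF7 had only 27 and 5 fragments, and ZBTB20 had 50 and 20. ZBTB18, the most abundant of the listed ZBTB genes, had an FPKM of 62.5 and 70.3. TSC22D1, a relative of the missing TSC22D3, had 11.97 and 10.01, respectively.

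**Figure D5:**
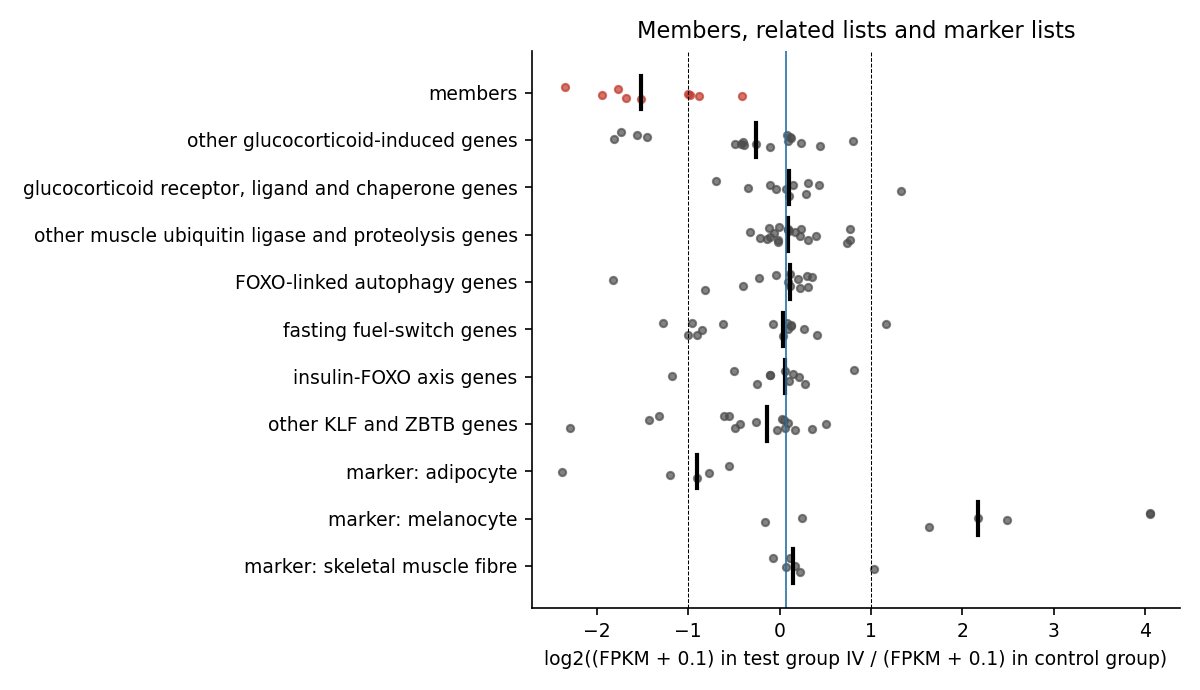
log2 fold change with 0.1 added to each FPKM (x axis) for single genes (points) of the members, the 7 related lists and 3 marker lists, with list medians (black bars), the median of all genes (blue line, 0.07) and 2-fold differences (dashed). The members have a median of -1.52, and most points of the related lists lie within the 2-fold lines.

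Of the marker lists of other cells, adipocyte markers were lower in the tyrosine library, as the members were. Fat cells also use PDK4, FOXO1, KLF15 and GLUL. All 5 listed adipocyte markers of 7 were lower in the tyrosine library, and their summed FPKM was 70.9 in the control library and 45.3 in the tyrosine library. ADIPOQ, the adiponectin gene, had an FPKM of 53.4 and 36.4, PLIN1, the perilipin of fat droplets, had 1.85 and 0.750, and CIDEC had 5 and 0 fragments. The summed FPKM of the 7 listed melanocyte markers of 12 was 2.20 and 11.5, with 6 of them higher and 1 lower. DCT had 4 and 138 fragments, GPNMB 3 and 92, and PMEL 10 and 92. SOX10, with 41 and 54 fragments, and KIT, with 49 and 47, had intervals that held 0. These genes were named after their values were seen. The summed FPKM of 6 macrophage markers was 182 and 244, with 4 of them higher and 2 lower. Most of it was CD74, with an FPKM of 154 and 207, and 1 marker, C1QB, was at least 2-fold higher (71 and 182 fragments). CD74 and C1QB were also named after their values were seen. The summed FPKM of 5 fibroblast markers was 315 and 368, with 4 higher and 1 lower. For 4 endothelial markers it was 44.1 and 43.6, and for 3 blood cell markers 13.8 and 14.8. Of the listed markers, only CIDEC was at 0, in the tyrosine library. A 0 in the control library could not appear, since genes with 0 fragments there are not listed. The melanocyte markers TYR, TYRP1, OCA2, SLC45A2 and MLANA were not found by name. The paper reports a much higher FPKM of MLANA in test group IV than in its control group. Its absence from the list is thus not absence from the tyrosine library, and the melanocyte sum leaves it out. The part of these cells in the lower levels of the members was not tested.

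Genes beside the members on the chromosome were mostly near their control levels. For each member the 3 nearest expressed genes on each side were taken, 54 places in all. Their median log2 fold change was 0.02, and 5 were at least 2-fold lower and 1 at least 2-fold higher, that is 9.26% lower beside 3.31% of all expressed genes. The neighbours named here were chosen after their values were seen. FOXO3 had 2 of the 5, which were SESN1, 143520 bases away, and the gene model within SESN1. Beside FBXO32, ZHX1, a zinc finger repressor gene, had an FPKM of 24.4 in the control library and 10.4 in the tyrosine library. Beside KLF15, CFAP100 had 2.77 and 0.959. Beside FKBP5, a gene model without a symbol had 1.07 and 0.171. For ZBTB16, TRIM63, FOXO1, PDK4 and NR3C1, 0 of the 6 neighbours were at least 2-fold lower.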

How the data were processed

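The members and gene lists were chosen with earlier results of these data known. Per the paper's methods, the authors cleaned the reads (Seqtk) and aligned them to Galgal5 (TopHat 2.0.9). They counted the fragments of each gene with StringTie 1.3.0, normalized the values by TMM and calculated FPKM. The submitters' processing notes also name FastQC and HISAT2. For each library the deposited table holds an unnormalized count of fragments and an FPKM for every gene. Use of strand in counting is not given in the sources used here. No listed gene has 0 fragments in the control library, and genes seen in the tyrosine library alone were therefore not analysed here. From count and FPKM, the relative depth was 1.09025, which was used for the intervals. The ratio of the total counted fragments was 1.09006, while TMM scaling gave a relative depth of 1.161. The deposited FPKM values therefore follow the totals and carry no TMM factor. A count of 3 fragments is 2.28e-05% of the counted fragments of the control library and 2.10e-05% of those of the other.

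The study's methods compare counts with edgeR. With 1 library per group no dispersion can be estimated, so no test was run. edgeR 4.0.16 (TMM) and DESeq2 1.42.0 (size factors) in R 4.3.3 gave alternative scalings only, and the rest was done in Python 3.11.15 (scipy 1.17.1, numpy 2.4.6, pandas 2.3.3; figures with matplotlib 3.10.9). Scalings and intervals were run on counts simulated with counting error only. That run cannot speak to variation between birds or pools. Named genes were all members, their relatives and, per list, genes at least 2-fold different (at most 5) and the 2 highest by mean FPKM, of which 1 gene is not reported here. Promoter and protein sequences were not used here. Alternatives were 4 scalings, 2 pseudocounts and 2 filters.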

Additional observations from a re-analysis of the deposited data

How the results depend on the processing

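All 9 listed members kept a lower level in the tyrosine library with each scaling and pseudocount tried. The median log2 fold change of the members was -1.52, -1.61 with median ratio or TMM scaling, and -1.60 with DESeq2 size factors. The number of members at least 2-fold lower was 6, 7 with these 3 scalings, and 5 with totals that leave out mitochondrial and abundant genes. Of all expressed genes, 364 were lower and 341 higher by 2-fold or more. These counts were 173 and 99 with 1 added to each FPKM, 1596 and 845 with no filter on low values, and 239 and 207 among genes with at least 50 fragments in both libraries together. Genes with 0 fragments in the tyrosine library are listed (796) and those with 0 in the control library are not. Absence from 1 library can therefore add to the lower counts but not to the higher ones, with or without the filter. With TMM scaling the counts were 438 and 271. The filters do not change the fold change of a single gene. The medians of the lists near 0 move by up to 0.09 with the scaling, so no direction is given for them. No paired analysis was possible because each group has 1 library. With 1 library per group the spread between birds is unknown, and depth limits low genes such as KLF7, with 27 and 5 fragments.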
